A study of Arabidopsis thaliana with 17 samples.

Results

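The sites described here are stretches of the Arabidopsis thaliana genome that held a peak of DNase I cutting in every root and seed coat peak list of the series. Nuclear peaks of the 11 lists that carry a common 6.8M mark were merged where they touched, which gave 49442 sites, and 10683 of them (21.6%) were overlapped by a peak of all 11 lists. With only the best 12375 peaks of each list the number was 2957. These 10683 are called the shared sites. Another 3070 sites were held by 10 of the 11 lists, and 8950 by a single list.

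DNase-seq maps open chromatin: the enzyme cuts DNA that is not wrapped in nucleosomes, and the small pieces that it releases are sequenced. All plants were of the Col-0 background and carried the INTACT tagging system, a nuclear envelope fusion protein (NTF) made under a chosen promoter and the biotin ligase birA made under the ACT2 promoter, so that tagged nuclei could be pulled down. The seed coat lists came from GL2:NTF plants 4 or 7 days past anthesis (DPA), with replicate 1 and a pool of replicates 3 and 4 at 4 DPA and a pool of both replicates at 7 DPA, while 4 DPA replicate 2 is the same library as replicate 1 and was not counted again. The root lists came from seedlings, with hair cells from ADF8:NTF plants at 7 days (replicate 1 and a pool of replicates 2 and 3), non-hair cells from GL2:NTF plants (replicate 2 at 7 days, replicates 1, 3 and 4 at 10 days) and whole roots from UBQ10:NTF plants at 7 days (2 replicates). Open and unopened flowers of UBQ10:NTF plants gave 1 list each and were not used to choose the sites. Nuclei were selected by promoter, so each list holds whatever cells the promoter is active in, and where the labels do not say that replicates were grown separately the spread between lists may be technical.

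A site that is open in many tissues is usually a promoter: the stretch just upstream of a transcription start, where transcription factors and the transcription machinery keep nucleosomes away. Genes used in all cells, such as those for ribosomal proteins and histones, are known for promoters of this kind, and in plants many of them carry the site II element, TGGGCC, bound by TCP factors. The G-box, CACGTG, is bound by bZIP and bHLH factors that act in light, abscisic acid and stress responses, and the W-box, TTGAC, is the core of the site bound by WRKY factors, regulators of defence and nutrient responses.

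Sequences of 6 shared sites on which results below turn are given first, read from the TAIR10 chromosomes on the forward strand, 5′ to 3′, with every site II element, G-box, W-box and telo-box (AAACCCTA), on either strand, in capitals. Each line is the central 150 bp of the site and overlaps no annotated exon. The first is among the sites with the highest scores in every list and is part of a repeated sequence. The second is a CLE9 site that ranked higher in the seed coat, the third an SHB1 site that ranked lower there with several W-boxes, the fourth a site II site higher in hair cells, and the last pair, near LPR2 and AFP2, were lower in hair cells.
Nearest AT3G32980, chr3:13591661-13591810: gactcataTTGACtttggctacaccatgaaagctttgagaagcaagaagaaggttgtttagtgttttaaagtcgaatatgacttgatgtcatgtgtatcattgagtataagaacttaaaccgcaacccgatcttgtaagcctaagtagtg
CLE9, chr1:9191191-9191340: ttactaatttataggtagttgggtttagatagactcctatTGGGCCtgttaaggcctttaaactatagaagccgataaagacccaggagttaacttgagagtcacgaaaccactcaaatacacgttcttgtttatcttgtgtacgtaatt
SHB1, chr4:12967041-12967190: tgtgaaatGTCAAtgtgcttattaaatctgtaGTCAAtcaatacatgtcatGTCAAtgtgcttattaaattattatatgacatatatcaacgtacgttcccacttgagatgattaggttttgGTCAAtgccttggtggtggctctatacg
AT4G22820, chr4:11987081-11987230: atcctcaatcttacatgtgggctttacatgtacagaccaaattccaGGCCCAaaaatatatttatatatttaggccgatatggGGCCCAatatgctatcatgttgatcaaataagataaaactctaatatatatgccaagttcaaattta
LPR2, chr1:26801801-26801950: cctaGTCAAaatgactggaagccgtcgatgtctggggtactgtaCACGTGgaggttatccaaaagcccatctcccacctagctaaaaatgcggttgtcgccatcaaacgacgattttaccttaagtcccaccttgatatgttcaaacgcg
AFP2, chr1:4712701-4712850: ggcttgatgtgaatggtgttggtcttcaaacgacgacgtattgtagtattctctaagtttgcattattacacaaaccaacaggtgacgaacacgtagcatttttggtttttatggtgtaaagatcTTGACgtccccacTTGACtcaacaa

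The shared sites had a median width of 270 bp (range 150 to 1030 bp), against 230 bp for all sites. In 9493 of them (88.9%) each list had exactly 1 peak. Peaks are 150 bp long, and the stretch covered in all 11 lists had a median of 30 bp. In 3240 shared sites (30.3%) no base was covered in every list, so that these were held together by peaks that overlapped in a chain. Shared sites took between 36.2% and 43.9% of the 24751 to 30110 peaks of a list. Their part was larger among the best-scored peaks than among the last. Of the best 1000 peaks of a list between 57.6% (7 DPA seed coat pool) and 84.7% (non-hair replicate 4) lay in a shared site. Of the last 5000 between 4.46% and 16.5% did. In the 7 DPA and 4 DPA pools the part was larger among the best 5000 (63.8% and 64.1%) than among the best 1000 (57.6% and 62.6%). At the edge of the rule, a site missing from 1 list lacked it most often in the 7 DPA pool (673 sites) and least often in non-hair replicate 2 (62 sites).

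Shared sites lay close to transcription starts. The median distance between a site's centre and the nearest start of a protein-coding gene was 196 bp, against 663 bp for all sites, and 58.7% of the shared sites, against 40.7% of all sites, lay within 400 bp of a start on either side. The fullest 50 bp bin was the one from 100 to 50 bp upstream, with 1353 shared sites (12.7%). The centre lay within 400 bp upstream of a start in 45.0% of shared sites, against 28.7% of all sites, and in a 5-prime UTR in 13.7%, against 12.2%. Coding exons held 2.06% of the shared sites and 4.19% of all sites, introns 2.55% and 5.67%, and 3-prime UTRs 3.79% and 5.73%. The remaining 32.9% of shared sites, against 43.5% of all sites, were intergenic. In 995 cases (9.31%, against 4.32% of all sites) the site lay between the starts of a divergent gene pair. GC content of the central 150 bp averaged 35.9% ± 5.51 in shared sites and 34.3% ± 5.67 in all sites (SD over sites). Density was even over the chromosomes, from 82.6 shared sites per Mb on chromosome 2 to 94.2 on chromosome 1.

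**Figure D1:**
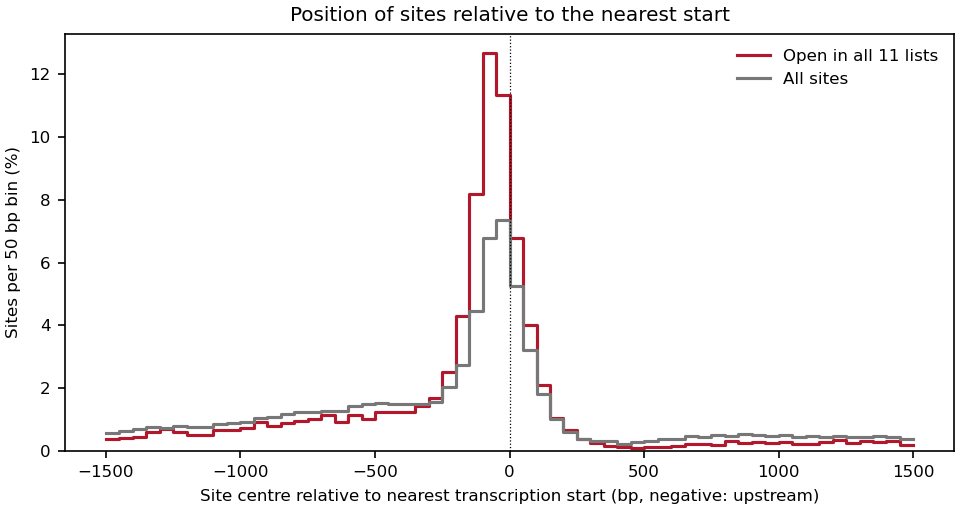
Percentage of sites per 50 bp bin (y axis) by distance of the site centre from the nearest transcription start (x axis, bp, negative values upstream), for the 10683 shared sites and all 49442 sites. The shared sites peak between 100 and 50 bp upstream with 12.7% in that bin, and the line for all sites is flatter.

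Other gene classes were touched by few shared sites. A tRNA gene was overlapped by 90 shared sites (0.842%, against 0.688% of all sites), an lncRNA gene by 405 (3.79%, against 3.33%), an snRNA gene by 17, a snoRNA gene by 6 and a miRNA gene by 4. Of the 43 sites at snRNA genes 39.5% were shared, and of the 31 at miRNA genes 12.9%.

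Of 27444 protein-coding genes, 8817 (32.1%) had the closest start to at least 1 shared site. Most of these genes, 7368, had 1 shared site, 1144 had 2, and 305 had 3 or more. The highest number, 21 of 58 sites, belonged to AT5G30520, followed by AT3G41762 with 11 of 17. Among genes with a known function, RAP2.4, an AP2/ERF transcription factor of light and ethylene responses, NCED3, the drought-induced dioxygenase of abscisic acid synthesis, and KNAT3, a homeobox factor of the KNOX family, had 6 each.

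Gene groups differed in how many of their genes had a shared site, and the share of 32.1% over all genes is the base against which they are read. The lists are descriptive and were not tested. The highest shares were those of the circadian clock genes (13 of 18, 72.2%), the ERF and DREB transcription factors of ethylene and stress responses (28 of 39, 71.8%), histones (34 of 48, 70.8%) and the type A response regulators that dampen cytokinin signalling (7 of 10). Tubulins had 9 of 15 (60.0%), ubiquitin and E2 genes 26 of 46 (56.5%), bZIP factors 25 of 48 (52.1%) and WRKY factors 32 of 67 (47.8%). Genes annotated as ribosomal proteins, some of them of plastid or mitochondrial ribosomes, had 163 of 342 (47.7%), translation factors 39 of 82 (47.6%) and the proteasome 19 of 45 (42.2%). MYB factors had 46 of 115 (40.0%). Lower shares were found for cytochrome P450 genes (58 of 219, 26.5%), SAUR genes of auxin-driven growth (3 of 16) and defensin and lipid transfer proteins (11 of 92, 11.96%). Where the site lay also differed: the shared site was within the 400 bp before a start for 27 histone genes (56.3%) and 125 ribosomal protein genes (36.5%), against 17.5% of all genes, but for 8 WRKY genes (11.9%) and 8 MYB genes (6.96%).

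**Figure D2:**
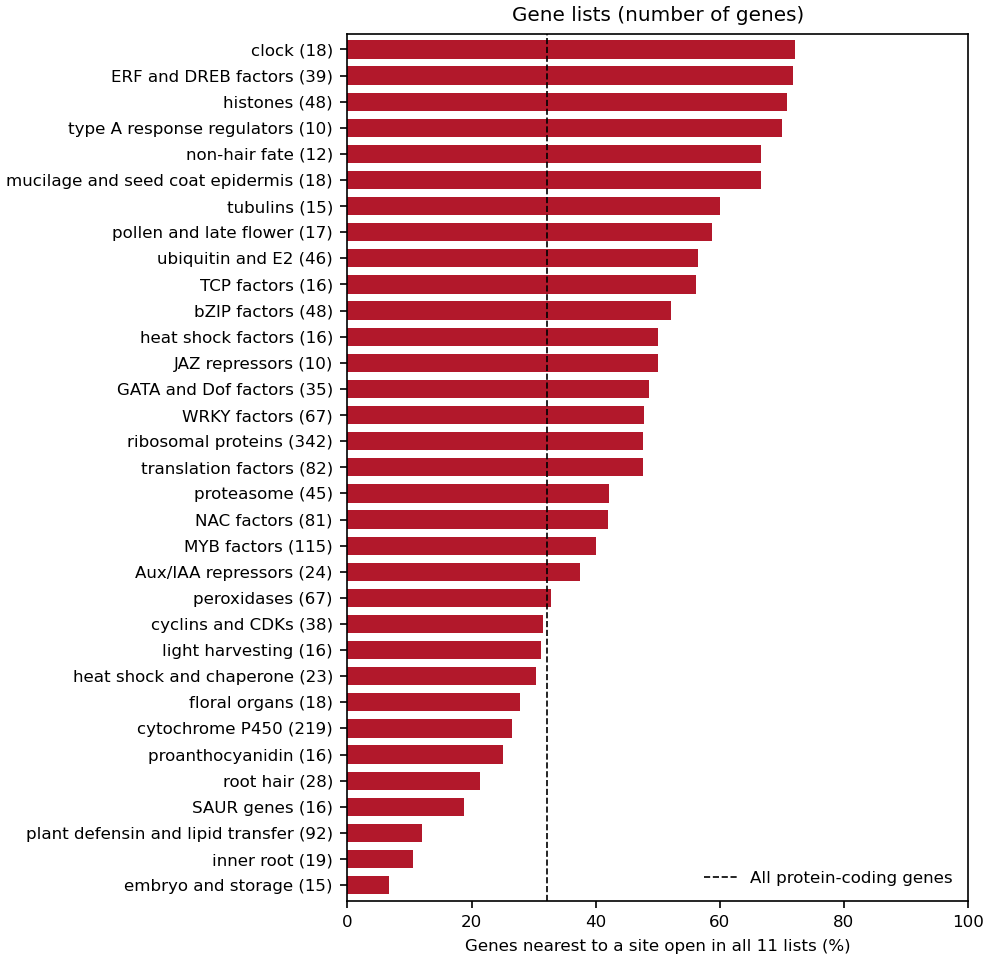
Percentage of the genes of each list that are nearest to a shared site (bars, x axis), with the number of genes in brackets and lists of 10 or more genes shown. The dashed line is the 32.1% of all protein-coding genes; clock, ERF and DREB, histone and type A response regulator lists are highest, at 70% or more, and embryo and storage genes lowest.

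Genes known from single cell types had shared sites to unequal degrees. Genes of the non-hair fate pathway, among them its inhibitors CPC, TRY and CPL3, had them in 8 of 12 cases and mucilage and seed coat epidermis genes in 12 of 18 (66.7% each). Pollen and late flower genes had 10 of 17; of these 10 genes the egg and sperm cell fusion factor HAP2 had the lowest rank, with a median of 1.55 on the scale explained below. Root hair genes had 6 of 28 (21.4%), proanthocyanidin genes 4 of 16, floral organ genes 5 of 18, inner root genes 2 of 19 and embryo and storage genes 1 of 15, the exception being the embryo regulator LEC2. The 6 root hair genes included RHD6, the bHLH factor that starts hair growth, AT5G61350, a receptor-like kinase, CSLD3, a cellulose synthase-like protein, PRP3, a cell wall protein, and ADF8. The median ranks of the 6 ran from 43.6 to 94.2.

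The site II element stood in the central 150 bp of 30.3% of shared sites, against 13.2% of all sites and 8.45% of sites held by 1 to 10 lists. It rose with the number of lists from 3.64% of sites in a single list to 23.0% of those in 10 lists, but not evenly, with 6.21% at 8 lists. The G-box was present in 12.3% of shared sites, against 7.24% of all sites, and the CCAAT box, which NF-Y factors bind, in 41.3%, against 34.7%. The W-box was nearly as frequent in shared sites (37.2%) as in all sites (36.5%) and reached 49.8% among sites in 8 lists. There are 8 root lists, and 3041 sites were held by all of them and by no seed coat list. The TATA box, TATAAA, stood in the central 150 bp of 23.2% of shared sites, against 26.3% of all sites, but over whole sites the order was the other way (40.9%, against 38.2%). Rarer in shared sites were the RY element of seed genes, CATGCATG (0.365%, against 0.641%) and the L1 box of epidermal genes, TAAATGCA (0.721%, against 1.11%). The telo-box hardly differed (1.704%, against 1.58%). All motifs were searched on both strands, and a match is a description of the letters and not of binding.

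**Figure D3:**
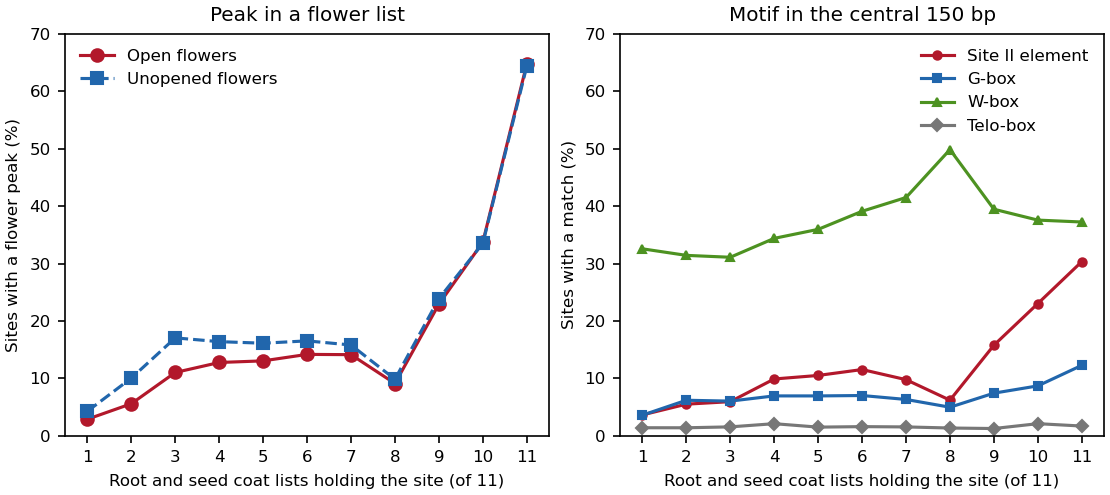
Left, percentage of sites with a peak in the open or unopened flower list (y axis) by the number of the 11 root and seed coat lists holding the site (x axis). Right, percentage of sites with each motif in the central 150 bp; the shared sites are at 11 lists, where flower shares (64.7% and 64.3%) and the site II element (30.3%) are highest, while the W-box is highest at 8 lists.

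To compare lists whose scores are not on one scale, each site was given a rank value in each list: the percentage of the 10683 shared sites that score below it there, so that 50 is the middle and values near 100 the top. From its lowest to its highest list, the rank of a shared site spanned 49.1 points at the median. Only 80 shared sites ranked above 90 in every list, 1732 ranked above 50 in every list, and 1632 below 50 in every list. In 1033 the rank values spanned under 25 points, in 1236 over 75 points, and 437 were above 90 in at least 1 list and below 10 in at least 1 other.

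Most sites with the highest median rank lay far from any protein-coding start. The rank scale ends at 100, so values near its top can vary little between lists. Of the 10 highest, 8 were intergenic, all had a peak in both flower lists, and none fell below 97.5 in any list. A site on chromosome 3 at 13591961 to 13592110, with AT3G32980 as the closest gene at 61937 bp, and one on chromosome 4 at 4005901 to 4006070, 66485 bp from AT4G06744, had 99.995 and 99.986 as their lowest values and an SD over the 11 lists of 0. In the second site of AT3G32980, printed above, 70.8% of the 31 bp words recur elsewhere in the genome, and in a site near AT4G06688, on chromosome 4 at 3953561 to 3953710, the words had a median of 41 copies. Among the 100 shared sites of highest median rank, 19 had at least 50% of their words repeated, against 47 of all 10683 (0.440%). How reads from several copies were assigned is not given in the labels, so the score of such a site may not be that of 1 locus. An exception is the site 278 bp upstream of AT2G01023, on chromosome 2 at 9961 to 10130, with no repeated word and a median of 99.96.

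Rank values were alike within the seed coat and within the root and less alike between them. Over the shared sites Pearson's r was 0.756 to 0.884 within the seed coat, 0.524 to 0.927 within the root and 0.316 to 0.479 between a seed coat and a root list. The pair of hair lists had an r of 0.927. Hair lists were as close to whole roots (0.855 to 0.877) as to the 7-day non-hair list (0.859 to 0.864) and less close to the 10-day non-hair lists (0.654 to 0.761). These lists also differ in how rank follows base composition: r between GC content and rank was 0.350 in 4 DPA seed coat replicate 1 and 0.333 in non-hair replicate 4, but -0.145 in whole root replicate 2. All these values are over the same sites, which are not independent, and carry no test.

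**Figure D4:**
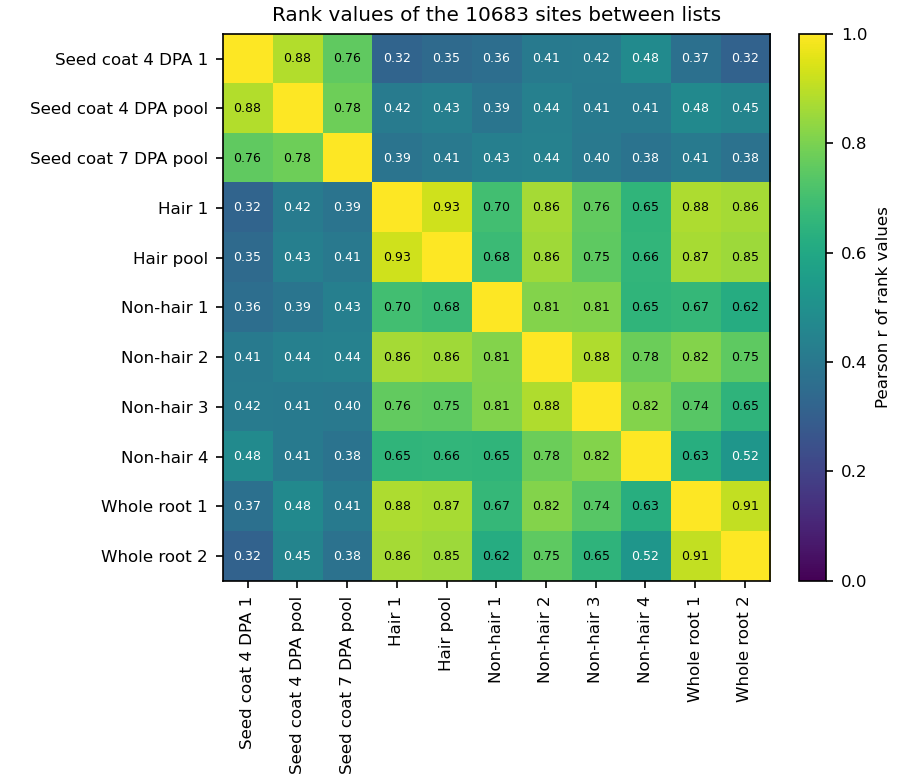
Pearson's r between the rank values of the 10683 shared sites for each pair of the 11 lists (colour and printed value), with seed coat lists first and root lists after them. Seed coat lists are alike (0.756 to 0.884), root lists are alike (0.524 to 0.927), and the blocks between them are lowest (0.316 to 0.479).

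Between seed coat and root, 1632 shared sites (15.3%) ranked higher in the seed coat and 1736 (16.3%) ranked lower there (limma on rank values over all 49442 sites, two-sided, Benjamini-Hochberg adjusted p under 0.05). Over all sites the same test called 20.7% higher and 11.9% lower, so the shared sites had a smaller part called higher and a larger part called lower than sites in general. Sites that a list does not hold have the value 0 there, which shared sites never have. The groups did not overlap in 1171 of the 1632 higher and 1317 of the 1736 lower shared sites. The matching counts over all sites were not made, so these do not set the shared sites apart. The median difference was 34.7 points among the higher and 40.3 among the lower. Without the pooled lists, which leave 1 seed coat list against 7 root lists, 707 were higher and 1098 lower.

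The sites that fell in the seed coat differed from those that rose in position and sequence. They lay farther from starts (median 522 bp, against 229 bp for those that rose), 46.4% were intergenic, against 32.9%, and their mean GC content was 33.7%, against 36.3%. A W-box stood in 48.3% of those that fell and 30.1% of those that rose. For the site II element the order was the other way, with 12.9% of those that fell and 28.5% of those that rose, and 34.9% of the 7315 that were not called. The share of GC content and of position in these motif differences was not tested. Peaks also sat at different places within the site: among sites without a base common to all lists 24.3% fell, among those with one 12.7%. The best peaks of seed coat and root were over 75 bp apart in 26.7% of the sites that fell, 15.9% of those that rose and 805 of the 7315 not called. A difference in rank at such a site can compare neighbouring peaks, and how far this enters the count was not tested.

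Among called shared sites whose groups do not overlap, the 10 with the largest gain in the seed coat were looked at singly. They held values of 84.1 to 99.7 in the 3 seed coat lists and 0.0749 to 53.1 in the 8 root lists. The CLE9 site printed above, 238 bp upstream of a gene for a CLE signalling peptide, had 94.0, 95.7 and 97.7 in the seed coat (4 DPA replicate 1, 4 DPA pool and 7 DPA pool) and between 0.913 and 31.6 in the root lists, with a difference of 83.2 ± 6.95 points (SE; limma adjusted p = 3.93e-06). Its peaks share 130 bp in all lists, so the same stretch was high in the seed coat and low in every root list. The site of AT3G46770, a B3-type transcription factor, had 92.8, 86.2 and 98.6 in the seed coat and 2.74 to 18.2 in the root (84.1 ± 4.88 points, limma adjusted p = 1.79e-07). A site 3746 bp downstream of the start of WUS, the homeobox gene that maintains stem cells of the shoot and acts in ovules, had 98.6, 84.1 and 91.8 in the seed coat and 1.55 to 33.0 in the root (82.1 ± 6.76 points, limma adjusted p = 3.52e-06). It had no peak in either flower list.

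OST1, a kinase of abscisic acid signalling known from guard cells, had 96.6, 98.0 and 99.1 in the seed coat, against 1.92 to 33.0 in the root, at a site 560 bp upstream (85.2 ± 7.99 points, limma adjusted p = 9.84e-06). There the mean peak positions of seed coat and root were 121 bp apart. The tetraspanin gene AT4G28770, with 88.9, 94.1 and 84.6 in the seed coat and 0.140 to 17.4 in the root, had its peaks 152 bp apart and AT3G14560 82.5 bp apart. At all 3 of these sites no base was covered in every list, as at 7 of the 10 sites in all. At AT3G46770 the peaks were also over 75 bp apart, with 10 bp in common. The remaining members of this group were the RING finger gene AT5G13250, the kelch repeat gene AT1G26930, the peroxidase gene PRXR1 and BGAL5, a beta-galactosidase of cell walls. Their sites too had no base covered in every list. BGAL5 had 98.4, 99.5 and 95.8 in the seed coat and reached 53.1 in whole root replicate 2, the highest root value of the 10 sites. Of the 10 sites, 8 had a peak in a flower list.

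Among lower sites chosen in the same way, all 10 with the largest loss in the seed coat were intergenic, between 486 and 3765 bp from the closest start. Their values were 0.201 to 23.7 in the seed coat and 64.3 to 99.3 in the root. A site 2681 bp upstream of the glycosyltransferase gene AT3G46700 had 4.12, 0.201 and 3.06 in the seed coat, and its lowest root value was 91.8 (difference -91.4 ± 2.87 points, limma adjusted p = 7.39e-09). At the SHB1 site printed above, by a gene of the EXS family known for seedling light responses and seed growth, values were 2.04, 0.379 and 4.79 in the seed coat and 86.1 to 98.2 in the root (-90.1 ± 3.42 points, limma adjusted p = 9.79e-09). Its mean seed coat and root peak positions were 7.5 bp apart, though no base was covered in all 11 lists. PPC3, a phosphoenolpyruvate carboxylase that supplies organic acids, had 4.12, 2.98 and 1.66 in the seed coat and 88.5 to 97.3 in the root (-89.8 ± 3.15 points, limma adjusted p = 7.39e-09).

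Others of these sites lay by transcription factor genes. HRS1, a MYB-like repressor of primary root growth under nitrate and phosphate signals, had 5.16, 23.7 and 1.66 in the seed coat and 95.9 to 99.0 in the root. A site 3141 bp upstream of WRKY6, a factor of phosphate and senescence responses, had 2.40, 15.1 and 0.782 in the seed coat and 85.9 to 98.8 in the root (-88.2 ± 4.32 points, limma adjusted p = 4.94e-08), with peaks 103.3 bp apart. The RWP-RK gene AT1G20640, the GRAS gene AT1G07520, the PLATZ gene AT1G21000, AT5G45500 and the annexin gene ANNAT4 complete the 10. Peaks were 278 bp apart at ANNAT4, 197.5 bp at AT1G07520 and 102.5 bp at AT1G21000, and at AT1G20640, HRS1, AT5G45500, AT3G46700, SHB1 and PPC3 between 7.5 and 51.7 bp. At 4 of the 10 sites neither flower list had a peak, and at 5 no base was covered in every list.

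**Figure D5:**
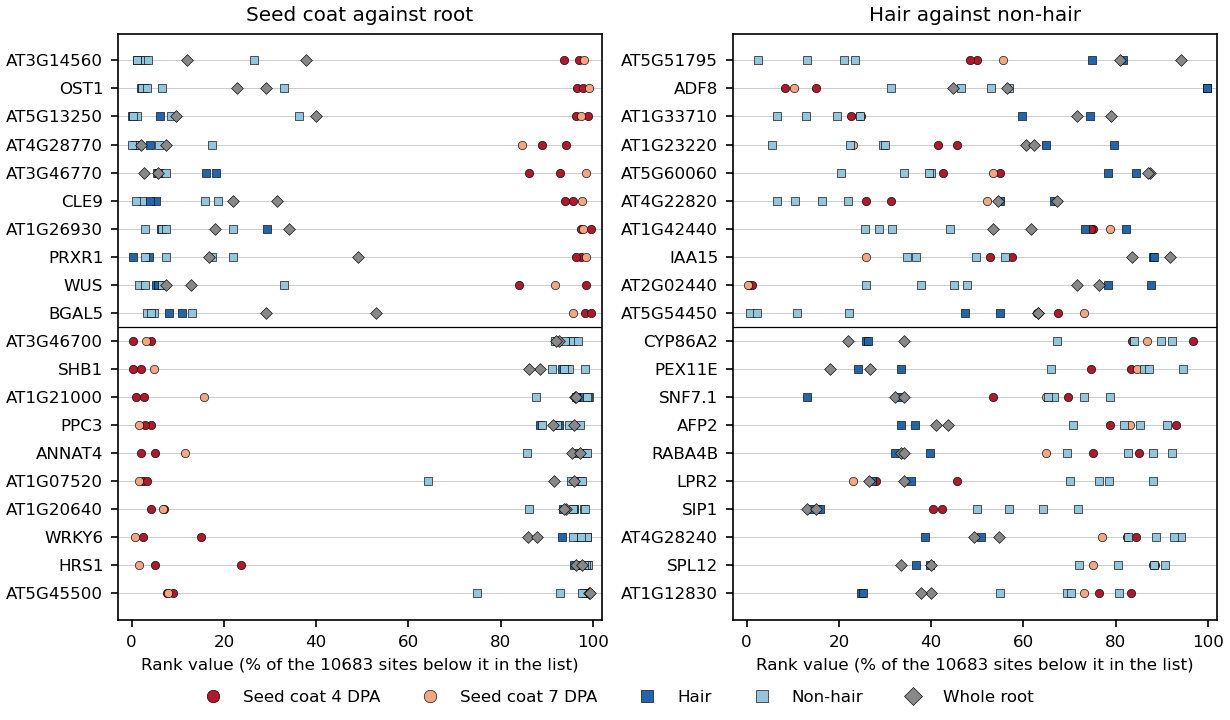
Rank value (x axis, percentage of the shared sites scoring below the site in a list) in each of the 11 lists (points) for the 10 shared sites with the largest gain (above the line) and loss (below it) in seed coat against root (left) and in hair against non-hair cells (right). All were chosen among called sites whose groups do not overlap. Seed coat points are apart from all root points in the left panel by that choice. In the right panel the whole root points mostly lie near the hair points.

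Within gene groups, WRKY genes moved mostly one way: 15 of the 32 with a shared site had 1 that was lower in the seed coat and 2 had 1 that was higher, against 1581 and 1554 of the 8817 genes with a shared site. WRKY31 had 14.1 as its lowest value and 98.3 as its highest (-77.6 ± 4.54 points, limma adjusted p = 2.12e-07), and WRKY36 fell by 73.4 ± 6.16 points (limma adjusted p = 4.09e-06). WRKY40, a regulator of defence, fell by 65.9 ± 5.08 points (limma adjusted p = 1.85e-06). WRKY2 was 15.6 ± 5.32 points higher (limma adjusted p = 0.0442). Ribosomal protein genes had 30 with a higher and 12 with a lower shared site of 163, and translation factors 5 and 0 of 39. Set against the 1554 of 8817 genes with a higher site, the first part is near the base and the second below it. In both groups the part with a lower site is smaller than over all these genes. No difference was tested. Of 7 type A response regulators, 4 had a lower site and 1 a higher one: ARR4 had 41.2, 59.2 and 31.99 in the seed coat and a root median of 96.9, while RR3 had 85.2, 71.4 and 85.7 and a root median of 29.5. Peaks of seed coat and root were 156.7 bp apart at ARR4, 77.5 bp at RR3 and 75.8 bp at WRKY36. Among the auxin repressors IAA2 had 18.4, 5.62 and 3.06 in the seed coat and a root median of 83.5 (-72.7 ± 8.07 points, limma adjusted p = 3.75e-05), and IAA16 had 96.2, 93.0 and 71.0, with a root median of 95.7 and no call.

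The best shared sites of the clock genes had a median rank of 91.6, against 50.9 over all genes with a shared site. GI, a clock protein of light input and flowering, had 99.7, 99.6 and 99.4 in the seed coat and 94.6 to 99.5 in the root. LHY and CCA1, the MYB-like factors of the morning, had seed coat values of 96.8 to 99.3 and 90.4 to 95.02, with root medians of 88.4 and 87.7. TOC1, which represses both, had 98.0, 97.7 and 91.6 in the seed coat and a root median of 89.8. PRR5, PRR7 and PRR9, pseudo-response regulators of the day, had median ranks of 96.8, 85.1 and 96.2. None of these best sites was called between seed coat and root; among the best sites of clock genes, FKF1 (-9.64 ± 2.76 points, limma adjusted p = 0.0199) and RVE8 (-25.3 ± 6.19 points, limma adjusted p = 0.00943) were lower in the seed coat. ELF3, with its most widely held site in 10 lists, and the LUX gene, listed as PCL1, with 9, were among the 5 clock genes without a shared site.

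Cell type genes moved both ways. Of the 12 mucilage and seed coat epidermis genes with a shared site, 6 had one higher in the seed coat and 1 had one lower. The counts were 4 and 1 of 8 non-hair fate genes, 1 and 4 of 6 root hair genes and 1 and 1 of 4 proanthocyanidin genes. They were 2 and 1 of 5 floral organ genes and 2 and 3 of 10 pollen and late flower genes. Over all 8817 genes with a shared site the counts were 1554 and 1581. The lists are small, and their differences from that base were not tested. Single genes follow as examples. MUM4, which makes rhamnose for seed mucilage, had 91.3, 98.4 and 98.8 in the seed coat and 74.1 to 97.0 in the root, without a call. BXL1, a xylosidase that trims mucilage and cell walls, had 72.3, 84.5 and 98.2 in the seed coat and 1.42 to 42.4 in the root (59.9 ± 9.34 points, limma adjusted p = 0.000498), with peaks 146.7 bp apart. FEI2, a receptor kinase of cellulose deposition, ranked higher by 26.4 ± 7.21 points (limma adjusted p = 0.0161). TT16, a MADS factor of the pigmented seed coat layer, had 91.3, 95.3 and 94.7 in the seed coat and a root median of 44.0 (47.0 ± 9.44 points, limma adjusted p = 0.00284), while DFR of the same pigment pathway had 8.21, 8.92 and 25.8 and a root median of 67.5 (-48.8 ± 7.79 points, limma adjusted p = 0.000592). RHD6 had 25.9, 60.6 and 18.5 in the seed coat and 32.7 to 98.1 in the root, with a root median of 96.3 (-52.9 ± 14.1 points, limma adjusted p = 0.0144). The groups overlap there, since non-hair replicate 4 lies below the 4 DPA pool. CPC, the mobile MYB that represses non-hair fate, had 94.0, 94.9 and 96.9 in the seed coat and 91.97 to 98.4 in the root, without a call. The floral regulator AP1 had 67.2, 86.9 and 95.5 in the seed coat and 3.56 to 22.0 in the root (72.1 ± 6.46 points, limma adjusted p = 6.74e-06).

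Between hair and non-hair cells few shared sites were called: 46 (0.431%) were higher in hair and 69 (0.646%) lower (limma as above). Over all sites the test called 0.566% higher and 0.267% lower. At an unadjusted p under 0.05 there were 1218 higher and 1280 lower shared sites. The matching counts over all sites were not made, so these do not set the shared sites apart. The calls by adjusted p depend on the lists used. Leaving out 1 list at a time gave 17 to 96 higher and 19 to 135 lower sites, with the highest counts without the 7-day non-hair replicate 2 and the lowest without non-hair replicate 3 (19 and 19) or a 4 DPA seed coat list (17 and 25), which enters only through the shared spread; against that replicate alone, without the 10-day lists, 44 were higher and 28 lower, of which 5 and 6 were among the 46 and 69. Hair lists are all from 7-day and most non-hair lists from 10-day roots, so that age and cell type cannot be told apart in most of this contrast. Taking out the dependence of rank on GC content left 25 higher and 28 lower, an alternative added after the data had been seen. On a normal score scale 51 were higher and 35 lower, so that the excess of lower sites turned round, and 15 of the 46 and 24 of the 69 were kept.

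The sites called in hair cells differed in sequence. The 46 that were higher carried the site II element in 69.6% (exact 95% binomial interval 54.2 to 82.3%) and no G-box (0 of 46, upper bound 7.71%), while the 69 that were lower carried the G-box in 31.9% (21.2 to 44.2%) and the site II element in 15.9%. The MYB core, AACCG, stood in 4.35% of the higher and 34.8% of the lower sites, and the CCAAT box in 60.9% and 26.1%. Mean GC content was 34.9% in the higher and 40.3% in the lower sites, and its share in the motif differences was not tested. Of the lower sites 89.9% had a peak in open and 92.8% in unopened flowers, against 63.0% and 71.7% of the higher ones and 64.7% and 64.3% of all shared sites. The lower sites had a median rank over the 11 lists of 79.4 and the higher ones of 40.3. Flower presence rose with rank, as given below, and the share of rank in this difference was not tested. At 37 of the 46 higher and 55 of the 69 lower sites the whole root mean was closer to hair than to non-hair. This is not particular to the called sites. Over all shared sites the whole root lists had an r of 0.855 to 0.877 with hair lists and 0.524 to 0.815 with non-hair lists.

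Among called sites whose groups do not overlap, the 10 with the largest difference in each direction kept their sign but not always their call. Over 18 alternatives each, the 10 higher ones lost it in 95 of 180 fits and the 10 lower ones in 104 of 180, with limma adjusted p up to 0.316 and 0.414. Shared sites that were not called differed by up to 64.5 points. Among sites higher in hair, that of AT5G51795, a gene for a Kin17-like nucleic acid binding protein, had 74.9 and 81.6 in hair and 2.49, 23.4, 21.1 and 13.1 in non-hair replicates 1 to 4 (63.2 ± 6.69 points, limma adjusted p = 0.0121). Its whole root values of 94.3 and 80.9 were above those of all non-hair lists. AT1G42440, related to TSR1 of ribosome maturation, had 82.2 and 73.4 in hair and 31.4, 25.7, 44.1 and 28.6 in non-hair cells (45.3 ± 5.67 points, limma adjusted p = 0.0229). The A20/AN1 zinc finger gene AT4G22820, whose site with site II elements is printed above, had 66.6 and 54.9 in hair and 6.62, 16.3, 10.5 and 22.0 in non-hair cells (46.9 ± 6.05 points, limma adjusted p = 0.0254). IAA15, an auxin repressor gene, had 88.0 and 88.4 in hair and 34.7, 56.0, 49.7 and 36.7 in non-hair cells. ADF8, an actin depolymerizing factor, is described with the tagging promoters below. Higher in hair by 42.2 to 51.1 points were also AT1G33710, AT1G23220, a dynein light chain gene, AT5G60060, AT2G02440 and AT5G54450.

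Among sites lower in hair, that in CYP86A2, a fatty acid hydroxylase of cutin synthesis, had 25.9 and 26.3 in hair and 84.0, 67.3, 92.2 and 89.9 in non-hair cells (-57.3 ± 7.83 points, limma adjusted p = 0.0325). PEX11E, of peroxisome division, had 33.5 and 24.1 in hair and 86.2, 66.0, 87.2 and 94.7 in non-hair cells. The promoter of RABA4B, a small GTPase known for its place at the growing hair tip, had 39.8 and 32.2 in hair and 92.2, 69.4, 88.0 and 82.6 in non-hair cells (-47.0 ± 6.56 points, limma adjusted p = 0.0347). The AFP2 site printed above, by a binding partner of the abscisic acid factor ABI5, had 36.6 and 33.5 in hair and 85.4, 70.7, 91.1 and 81.9 in non-hair cells. The LPR2 site with the G-box, by an oxidase that senses low phosphate at the root tip, had 27.1 and 35.7 in hair and 76.4, 70.1, 78.6 and 88.2 in non-hair cells. AT4G28240, a wound-responsive gene, had the lowest adjusted p of the 10 (-44.9 ± 4.46 points, limma adjusted p = 0.00954). SNF7.1, an ESCRT-III subunit, SIP1, a raffinose synthase gene, SPL12 and AT1G12830 were the others, and whole root values at the 10 sites lay between 13.2 and 54.8.

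Promoters used in the tagging constructs included 3 with shared sites, of which GL2 and ADF8 ranked highest in the lines that carry their promoter before NTF. GL2, the homeodomain factor of non-hair and seed coat epidermis, had 99.5, 99.9 and 99.6 in the seed coat and 99.7, 99.9, 99.7 and 99.5 in non-hair cells, all of them GL2:NTF lines, against 58.9 and 63.4 in hair and 71.0 and 49.0 in whole roots. ADF8 had 99.9 and 99.8 in hair, the ADF8:NTF line, and between 31.3 and 57.0 in the other root lists, with 8.21, 15.1 and 10.2 in the seed coat (hair against non-hair 52.9 ± 7.45 points, limma adjusted p = 0.0361). ACT2, whose promoter drives birA in all lines, had 89.3, 86.5 and 77.1 in the seed coat and 98.5 to 99.8 in the root (-15.1 ± 2.56 points, limma adjusted p = 0.000867), with mean peak positions 222.5 bp apart. Reads from the construct and from the gene itself cannot be told apart in these lists.

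A peak in the open flower list was found at 6917 shared sites (64.7%) and in the unopened flower list at 6873 (64.3%), against 22.9% and 24.8% of all sites. With only the better-scored 0.5 of each flower list the shares were 39.3% and 40.4%. Both lists had a peak at 54.9% of shared sites, against 17.7% of all sites, and neither at 2756 (25.8%). There was 1 flower list of each kind, at a depth that is not known, so the shares describe these lists. At sites held by 10 lists the shares were 33.7% and 33.5%, and at sites of a single list 2.89% and 4.28%. From the side of the flowers, 60.4% of the open and 54.6% of the unopened flower peaks lay at a shared site, and 77.7% and 79.2% of the best 1000 peaks of each.

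Flower presence rose with rank and differed with the direction of change between seed coat and root. Among the 2137 shared sites with the lowest median rank 31.2% had an open flower peak, and among the 2137 with the highest 87.5%. Of the sites higher in the seed coat 74.0% had an open and 77.1% an unopened flower peak, and of those lower 49.6% and 44.2%, while those not called had 66.3% in both.

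Of the 8 shared sites of highest rank without a flower peak, GL2 came first, with a median of 99.5. ZIP3 and ZIP5, zinc transporters, had medians of 97.9 and 97.2: ZIP3 had 15.1, 40.5 and 10.2 in the seed coat and 89.1 to 99.8 in the root (-75.3 ± 5.58 points, limma adjusted p = 1.49e-06), and ZIP5 had 60.3, 79.9 and 71.0 in the seed coat and 95.4 to 99.7 in the root (-27.8 ± 3.50 points, limma adjusted p = 1e-04). ZFP5, a zinc finger factor of trichomes and root hairs, had 17.3, 28.1 and 21.5 in the seed coat and 67.4 to 99.4 in the root (-71.1 ± 6.57 points, limma adjusted p = 8.74e-06). AT5G03370, AT5G45500, AT2G39210 and AT5G61990 completed the 8. At 7 of these 8 sites, all but GL2, the rank was lower in the seed coat than in the root; as 8 of the 11 lists behind the median are root lists, the choice itself favours that direction.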

How the data were processed

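The authors deposited peak lists of DNase I sequencing with 1 peak per line. The submitters' processing notes name TAIR10 and Bowtie 0.12.7; no source used here gives a peak caller or cutoff. The marked lists hold 150 bp peaks with a deposited score that is a whole number, and the unmarked flower lists hold a deposited score and a deposited -log10 p-value, which was not used. The 6.8M mark was taken for an equal read number per list, though no label says so. No read counts were used, so depth per peak is unknown, and exact binomial (Clopper-Pearson) 95% intervals cover counting error over sites only. Scores were used only as ranks within a list.

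Peaks of the nuclear chromosomes were merged with a gap of 0 bp. An overlap of 1 bp sufficed for a list to hold a site. Rank values (ties count in equal parts, absent sites 0) were fitted over all sites with limma 3.58.1 in R 4.3.3 (eBayes with trend and robust), the first contrast as 3 seed coat against 8 root lists, the second with a mean per group, and adjusted by Benjamini-Hochberg at 0.05. The seed coat against root fit over 49442 sites was tested on simulated data in which 200 shared sites were changed. Of those changed in score by a log2 of 1 or 2, 29.0% and 54.0% were recovered. Of the unchanged sites 0.12% were called. As unchanged sites far outnumber changed ones, false calls are a much larger part of the calls than 0.12%. Absent lists were dealt at random within a simulated site, so absence carried no group difference there.

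Starts and gene names came from the RefSeq annotation of TAIR10.1, whose nuclear sequences are those of TAIR10. Repeated sequence was measured by words of 31 bp. Named are the 10 shared sites with the highest median rank, the 10 with the largest difference per contrast and direction among called sites whose groups do not overlap, the 8 highest without a flower peak, and genes of the lists. The shared sites and lists were chosen with earlier results of these data known. No replicate number pairs lists between groups. Alternatives were other gaps, overlaps, numbers of peaks, lists, scales and windows.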

Additional observations from a re-analysis of the deposited data

Results flagged for a closer look

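Among the 4 non-hair lists, 1 list stood apart from the others by Dixon's test at 13 of 61 values checked (the named sites and 4 measures of the lists). The test's rate of about 1 in 20 holds for independent, normally distributed values. Most values here are ranks on a bounded scale, often near its ends, and come from the same 4 lists. The count can therefore not be set against that rate. At 10 of the 13 sites the list apart was non-hair replicate 4, from 10-day roots. It was low at AT1G21000 (87.8), ANNAT4 (85.6), AT1G07520 (64.3), ZIP3 (89.1), ZIP5 (95.4), AT2G39210 (89.9) and AT5G61990 (70.4). It was also apart at AT3G46770 (7.43), BGAL5 (13.1) and, within a narrow range, at the site nearest AT3G32980 (99.9). Non-hair replicate 1 was the high one at AT3G14560 (26.6), OST1 (33.0) and WUS (33.0). Replicate 4 had the strongest relation of rank to GC content among the non-hair lists (r = 0.333). The seed coat and root differences of AT3G14560, OST1, AT3G46770, WUS, BGAL5, AT1G21000, ANNAT4 and AT1G07520 were called with the same sign without either list. For the other sites the results of those fits were not looked at.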

How the results depend on the processing

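The number of shared sites was 11351 with a gap of 50 bp, 9440 with equal numbers of peaks, 11788 without pools and 10688 to 11289 with 1 list left out, but 2957 with the better 12375 peaks of each list; 7443 shared sites have a common base. For seed coat against root the counts without the pooled lists were 707 higher and 1098 lower, and with 1 list left out 1121 to 1740 and 1329 to 1864; 948 of the lower sites have a common base. The 20 named sites of this contrast were called in all 20 alternatives, but they were chosen for the largest differences. Against the non-hair lists only, 1198 shared sites were higher and 1274 lower in the seed coat. That fit kept 59.4% of the higher and 64.5% of the lower calls. For hair against non-hair, leaving out 1 list gave 17 to 96 higher and 19 to 135 lower, dropping the pools 20 and 20, the GC correction 25 and 28, the normal score 51 and 35 and dropping the 10-day lists 28 lower; the named sites lost their call in 95 of 180 (higher) and 104 of 180 (lower) fits, from 1 of 18 alternatives for AT4G28240 to 14 for PEX11E, and none reversed (adjusted p 0.000176 to 0.414). With the better-scored peaks of each flower list, 0.5 of their number, 39.3% (open) and 40.4% (unopened) of shared sites had a peak, and with an overlap of 75 bp 62.8% (unopened). An upstream window of 1000 bp held 58.5%. In whole sites the site II element stood in 37.3% of shared and 15.6% of all sites, the G-box in 17.6% and 9.49%, the W-box in 56.2% and 48.1%, the telo-box in 4.02% and 2.89% and the TATA box in 40.9% and 38.2%. Why the hair counts move was not tested. No paired analysis was possible because the lists carry no number that links them across groups. The lists limit the precision: 1 at 7 DPA, 2 of hair cells, and pools that hide the spread of their replicates.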
